A study of Mus musculus with 39 samples.

Results

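The genes described here encode the motor proteins of the sperm flagellum and of motile cilia, together with the cilia and flagella associated proteins (Cfap). They were chosen by symbol from the first deposited count table, as every gene named Cfap, Dnah, Dnai or Dnal followed by a number. The rule found 48 of the 22036 Ensembl genes of that table, of which 15 were dynein heavy chains (Dnah), 2 were dynein light chains (Dnal), 31 were Cfap genes and 0 carried a Dnai symbol. All but Cfap99 were also among the 21561 genes that both count tables list, so 47 could be followed in every library, 14 of them under another symbol in the second table. All 48 gene models are protein coding, and they lie on 17 chromosomes.

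Bulk RNA-seq was performed on testis and on gubernaculum, the ligament that guides the testis towards the scrotum, from male C57BL/6J mice without any drug or surgery. Wild-type (WT) mice carried mouse Insl3, INSL3-KI mice were homozygous for a cetacean (minke whale) INSL3 coding sequence placed at the mouse locus under the mouse regulatory elements, and INSL3-KO mice were Insl3 knockouts. All 3 genotypes were sampled at postnatal day (P) 8 in both tissues and at P23 in testis. WT and INSL3-KI alone were sampled at P40 in testis and at P23 in gubernaculum. Each of the 13 groups held 3 biological replicates, 39 libraries in all. The alleles are present in every cell of the body, so the design does not tie a difference in the testis to a cell type, and the INSL3-KO mice served to ask whether cetacean INSL3 acts as a null allele does.

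An axoneme is a ring of microtubule doublets around a central pair, and it bends when dynein arms on each doublet walk along the next. Outer arms mainly supply power and beat frequency, and inner arms shape the bend. In the testis the genes for these parts are switched on in meiotic and post-meiotic germ cells, before and while spermatids build their flagella. Sperm and airway cilia differ in their outer arm heavy chains, with Dnah8 and Dnah17 used in sperm and Dnah5, Dnah9 and Dnah11 in motile cilia.

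Regulatory factor X proteins bind the X-box in promoters of many ciliary genes, and CREM, a regulator of spermatid genes, binds cAMP response elements. A promoter window, from 250 bases before to 50 bases after the gene start, was given by RefSeq (GRCm38.p6) for 40 of the 48 genes. The X-box was searched on both strands as GTTNCC, any 3 bases and GNAAC, and 4 of the 40 genes (10%) held it, against 0.936% of the 27025 genes with a window. Its half-site GTTGCC, which can lie inside an X-box, was in 14 of the 40 (35%) and in 14.1% of all genes. The cAMP response element TGACGTCA was in 1 of the 40 (2.5%) and in 2.03% of all genes. The stretches around these matches are shown because they are where the promoters of this family carry the full motifs, each 5′ to 3′ in the direction of its gene with the motif in capitals.
Cfap45, chr1:172521066-172521129, plus strand: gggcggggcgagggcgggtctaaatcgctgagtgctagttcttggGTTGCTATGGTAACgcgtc
Cfap61, chr2:145934731-145934789, plus strand: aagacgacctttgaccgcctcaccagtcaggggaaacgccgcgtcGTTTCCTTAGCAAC
Cfap44, chr16:44394727-44394798, plus strand: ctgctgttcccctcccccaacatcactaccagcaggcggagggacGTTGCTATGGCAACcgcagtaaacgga
Cfap298, chr16:90935004-90935082, minus strand: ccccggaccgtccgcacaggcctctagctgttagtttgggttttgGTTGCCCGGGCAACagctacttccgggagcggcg
Dnah6, chr6:73221779-73221851, minus strand: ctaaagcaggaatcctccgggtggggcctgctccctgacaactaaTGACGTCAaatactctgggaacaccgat
The X-box began 19 bases before the start of Cfap45, 8 before Cfap61, 27 before Cfap44 and 188 before Cfap298, and the element began 175 bases before the start of Dnah6. The matches in Cfap45 and Cfap44 read as the motif on the opposite strand. A match of letters is a description and not a shown binding site.

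The libraries held between 29861447 and 45260372 counts, with a median of 36944626. Insl3 had 2922, 3524 and 2722 counts in WT testis at P8 and 906, 804 and 613 counts in the testis libraries labelled INSL3-KO at P8, so its reads were present there. At P23 it had 20844, 25238 and 23851 counts in WT testis and 0, 5 and 0 in INSL3-KO. The second count table holds the INSL3-KO libraries and WT P23 testis, and the first table all others, so that table and genotype cannot be told apart where a comparison crosses tables. Counts and FPKM implied the same transcript length in both tables (within 0.1 on the log2 scale) for 33 of the 46 genes with a value. The implied lengths of Dnah14, Dnah7a, Dnah12 and Cfap46 were larger in the first table by 2.88, 1.72, 1.43 and 1.24 on the log2 scale. Words of 100 bases shared with other genes made up 19.1% of Dnah7a, 14.3% of Dnah7b and 23.9% of Dnah7c, so the split of reads among these 3 inner arm genes is uncertain. In elongating spermatid markers the libraries labelled WT P23 testis, at 18566 to 20547 CPM (counts scaled to library size), exceeded WT P40 testis, at 11273 to 14167 CPM, although these cells build up with age in the first wave of spermatogenesis. The age label of WT P23 testis is therefore in doubt, and so is every P23 testis comparison with WT, while the comparison of INSL3-KI with INSL3-KO uses none of these libraries. In INSL3-KI testis, library 2 at P8 was the highest of its group for 44 of 47 genes, library 1 at P40 was the highest for 43, and library 3 at P23 was the lowest for 45.

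In WT testis these genes rose together between P8 and P40. Their summed level, as counts scaled to the size of the library over all testis libraries (CPM), was 247, 252 and 271 in the P8 libraries and 13699, 13873 and 12663 in the P40 libraries. By edgeR's quasi-likelihood test 42 of 46 genes tested were called higher at P40 and 0 lower, where 31.9% of all genes tested were called higher and 27.8% lower. To be called, a gene had to have an adjusted p under 0.01 and to differ at least 2-fold. The median log2 fold change was 7.05 for the 46 genes and -0.03 for all genes. At P23 the WT sum was 11093, 10923 and 11111 CPM, and 43 of 46 genes were called higher than at P8, across tables (background 32.8%).

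**Figure D1:**
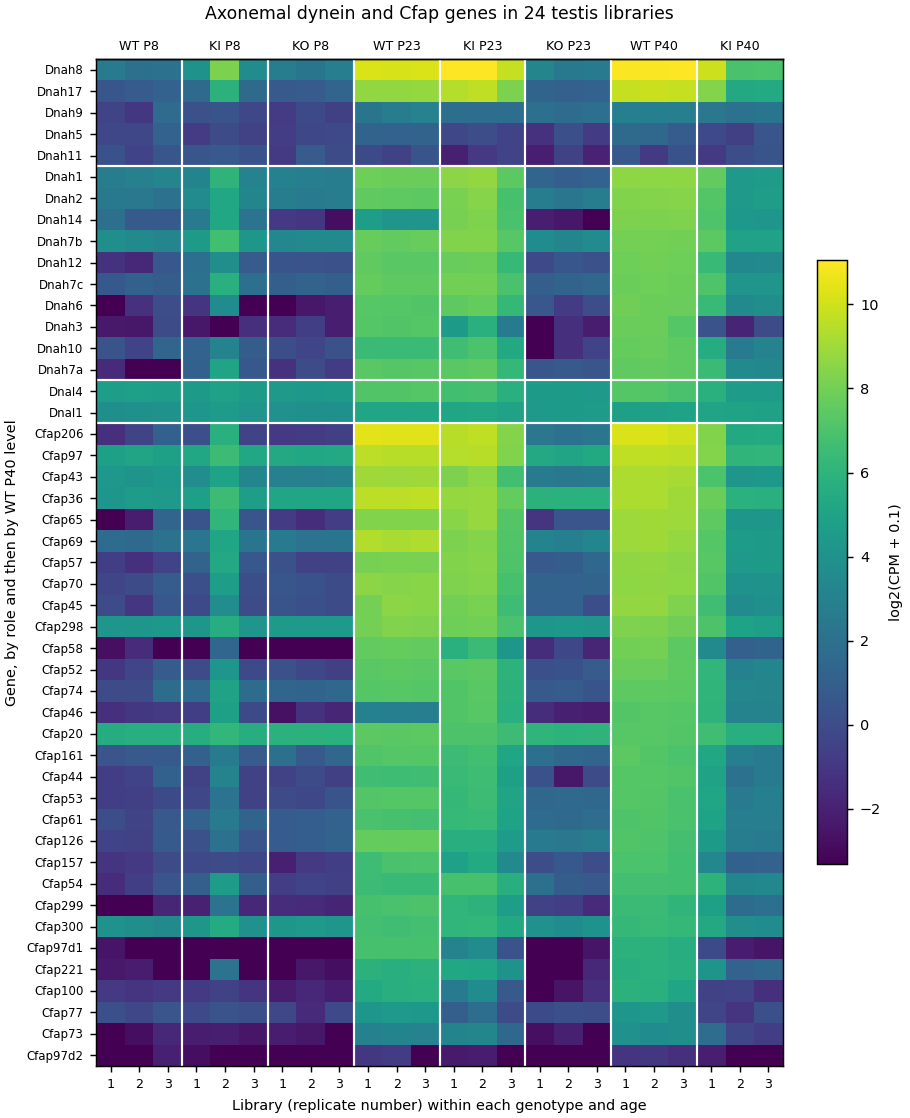
Heat map of log2(CPM + 0.1) for the 47 genes (rows, by role and then by WT P40 level) in each of the 24 testis libraries (columns, 3 for each genotype and age). WT changes from low values at P8 to high values at P23 and P40, INSL3-KO is still low at P23, and P8 INSL3-KI library 2 and P40 INSL3-KI library 1 stand above the other libraries of their groups.

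The outer arm heavy chains expressed in WT testis were the pair known from sperm. Per transcript length, Dnah8 (GRCm38 chr17:30624354-30877365, plus strand) had 89.6 ± 5.3 FPKM (SD, n = 3) at P40 and Dnah17 (chr11:118021723-118130634, minus strand) had 43.0 ± 2.1 FPKM. The ciliary chains were far lower, with 0.338 ± 0.0077 FPKM for Dnah9, 0.103 ± 0.024 for Dnah5 and 0.0519 ± 0.029 for Dnah11. Dnah8 had 6.06, 3.84 and 3.96 CPM in the WT P8 libraries and 1981, 2007 and 2036 CPM at P40, groups that lay far apart (log2 fold change 8.71, SE 0.22, edgeR adjusted p = 3.9e-08). Dnah17 rose by a log2 fold change of 8.97 (SE 0.19, adjusted p = 2.4e-08). Dnah9 (2.30, SE 0.70, adjusted p = 0.017), Dnah5 (0.97, SE 0.52, adjusted p = 0.12) and Dnah11 (-0.10, SE 0.54, adjusted p = 0.87) did not pass the test.

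All 10 inner arm heavy chains rose from P8 to P40, and at P40 their levels lay close together. They ran from 9.08 ± 0.29 FPKM for Dnah10 to 19.6 ± 0.94 FPKM for Dnah1, with Dnah7a at 9.75, Dnah3 at 10.6, Dnah6 at 11.8, Dnah7c at 12.2, Dnah12 at 13.01, Dnah7b at 14.0, Dnah14 at 14.2 and Dnah2 at 17.3 FPKM between them. Neighbours such as Dnah7b and Dnah14, or Dnah6 and Dnah7c, differed by less than their SDs. Among the steepest rises was that of Dnah7a (chr1:53397006-53706784, minus strand; log2 fold change 11.21, SE 0.49, edgeR adjusted p = 4.2e-07), although its share of the reads of the 3 Dnah7 genes is uncertain.

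Of the light chains, Dnal4 had 65.5 ± 5.2 FPKM at P40 and rose from P8 by 2.39 on the log2 scale (SE 0.11, edgeR adjusted p = 5.4e-07). Dnal1 had 14.4, 14.5 and 16.4 CPM at P8 and 29, 30.02 and 31.8 CPM at P40, without overlap, but its log2 fold change of 0.95 stayed under the fold limit.

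All 29 Cfap genes tested rose, from widely different levels. The 10 highest at P40 were Cfap206 (343 ± 13 FPKM), a radial spoke associated protein, then Cfap36 (224 ± 15), Cfap298 (143 ± 11), Cfap97 (137 ± 11), Cfap45 (130 ± 16), Cfap126 (93.2 ± 7.8), Cfap43 (80.6 ± 0.89), Cfap20 (77.9 ± 2.2), Cfap161 (71.6 ± 8.2) and Cfap70 (71.2 ± 2.2). Cfap58, a protein of the sperm tail, rose by 11.04 on the log2 scale (SE 0.48, edgeR adjusted p = 4.0e-07). Cfap97d1 (chr11:101984279-101992264, plus strand), a gene needed for sperm motility, had at most 3 counts in each WT P8 library and was at least 771-fold higher at P40. Cfap20, a conserved protein inside the doublet, showed the smallest called rise (log2 fold change 1.52, SE 0.08, adjusted p = 1.4e-06). Cfap97d2 had 0.186 ± 0.020 FPKM at P40 and passed the filter on low counts in no comparison. Cfap99, which is in the first table only and was not tested, had 0.143 ± 0.035 FPKM at P8 and 15.5 ± 0.37 FPKM at P40.

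INSL3-KO testis at P23 held almost none of this expression. The summed level was 344, 315 and 335 CPM, near the P8 libraries and far under the 10923 to 11111 CPM of WT P23, which stands in the same table. Of 46 genes, 43 were lower than in WT and 0 higher by edgeR's test, where 33.4% of all genes tested were called lower, and the median log2 fold change was -6.61 against 0.06 for all genes. All 10 inner arm heavy chains and all 29 Cfap genes fell, as did Dnah8, Dnah17, Dnah5 and Dnal4.

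**Figure D2:**
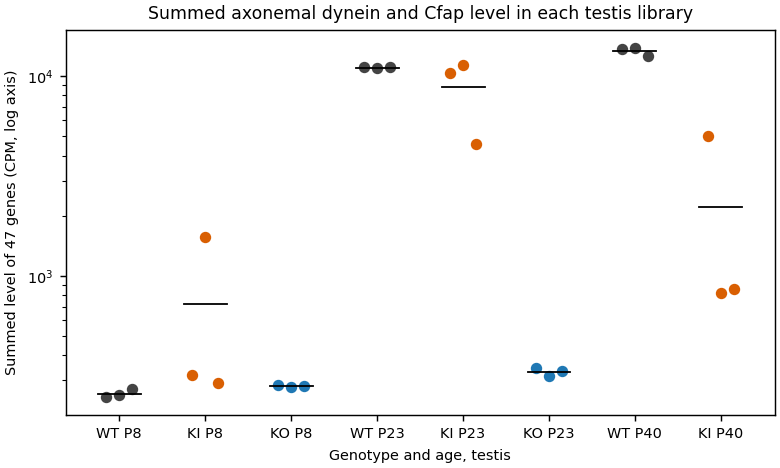
Summed level of the 47 genes in CPM (log axis) for each testis library (points), by genotype and age, with the mean of each group as a black line. The INSL3-KO libraries at P23 (315 to 344 CPM) lie near the P8 groups, while the INSL3-KI libraries spread from 4545 to 11376 CPM at P23 and from 824 to 4991 CPM at P40.

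Dnah8 had 30369, 28765 and 28699 counts in the WT P23 libraries and 338, 244 and 257 counts in INSL3-KO. The groups did not overlap, and the log2 fold change was -7.38 (SE 0.14, edgeR adjusted p = 1.2e-11). Dnah17 fell by 7.56 on the log2 scale (SE 0.07, adjusted p = 1.9e-13) and Dnah5 by 1.78 (SE 0.44, adjusted p = 0.0032). Dnah9, at 4.72, 6.73 and 8.06 CPM in WT and 3.92, 3.29 and 3.84 CPM in INSL3-KO, had a log2 fold change of -0.76 (SE 0.22, adjusted p = 0.0078), under the fold limit.

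Dnah3 (chr7:119922671-120095280, minus strand), an inner arm heavy chain, had 3765, 3443 and 3652 counts in WT P23 and 0, 12 and 5 in INSL3-KO. This was the largest change among the heavy chains (log2 fold change -9.96, SE 0.24, edgeR adjusted p = 7.2e-11). Cfap97d1 had 2929, 2902 and 2808 counts in WT and 0, 0 and 3 in INSL3-KO, at least 1527-fold lower. Cfap221, a central pair protein, fell by 9.48 on the log2 scale (SE 0.35, adjusted p = 1.7e-09). At the other end Cfap20 had 170, 166 and 170 CPM in WT and 68.7, 62.8 and 64.2 CPM in INSL3-KO (log2 fold change -1.31, SE 0.05, adjusted p = 3.2e-09). Dnal1 (-0.56, SE 0.07, adjusted p = 2.5e-05) and Dnah11 (-1.43, SE 0.62, adjusted p = 0.051) were not called.

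Germ cell markers moved with these genes. The summed level of 7 elongating spermatid markers ran from 18566 to 20547 CPM in WT P23 testis and from 3.602 to 5.36 CPM in INSL3-KO. That of 8 spermatocyte markers ran from 1826 to 1918 CPM in WT and from 137 to 142 CPM in INSL3-KO, and that of 10 Sertoli cell markers from 2453 to 2539 and from 11219 to 11481 CPM. Their part in the result was not tested, and in bulk tissue fewer cells of a type and less RNA per cell cannot be told apart.

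INSL3-KI testis at P23 kept most of the expression that INSL3-KO testis lacked. The summed level was 10404, 11376 and 4545 CPM, so that libraries 1 and 2 were near WT and library 3 was under it. Against INSL3-KO, 40 of 46 genes were higher and 0 lower by edgeR's test (background 25.2% higher and 13.0% lower), across tables, with a median log2 fold change of 6.44. Dnah8 was higher by 7.93 on the log2 scale (SE 0.48, adjusted p = 0.00016) and Cfap221 by 8.61 (SE 0.97, adjusted p = 0.00051). The largest differences, 11.57 for Dnah14 and 9.40 for Cfap46, were those of genes counted over different lengths in the tables. For 42 genes all INSL3-KI libraries were above all INSL3-KO libraries and for 0 under them (background 40.1% and 35.9%). Calls were lacking for Dnah9, Dnah5, Dnah11, Dnal1, Cfap20 and Cfap77.

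Against WT at P23, 4 of 46 genes were called lower in INSL3-KI and 2 higher (background 11.8% lower and 8.81% higher), across tables. The median log2 fold change was -0.52. For 24 genes all INSL3-KI libraries were under all WT libraries and for 2 above them. At an unadjusted p under 0.05 of edgeR's test, 19 genes were lower and 2 higher. No share over all genes is set beside these further counts. The genes called lower were Cfap97d1, Cfap77 and Cfap126, which are axonemal or sperm tail proteins, and Dnah5. Cfap97d1 had 118, 118 and 117 CPM in WT and 8.64, 12.2 and 1.16 CPM in INSL3-KI, every library far under WT (log2 fold change -3.99, SE 0.75, edgeR adjusted p = 0.0066). Cfap77 fell by 3.20 (SE 0.46, adjusted p = 0.0030), Cfap126 by 2.19 (SE 0.30, adjusted p = 0.0028) and Dnah5 by 1.53 (SE 0.29, adjusted p = 0.0071) on the log2 scale. The higher genes, Cfap46 (4.02) and Dnah14 (3.53), have other implied lengths in each table, and the 33 genes of the same length held 4 lower and 0 higher.

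The sperm outer arm chains were not among them. Dnah8 had 1224, 1173 and 1192 CPM in WT P23 and 2056, 2111 and 892 CPM in INSL3-KI, with overlap between the groups (log2 fold change 0.51, SE 0.34, edgeR adjusted p = 0.24), and Dnah17 was not called either (0.51, SE 0.35, adjusted p = 0.26). Dnah3 had 23.02, 55.8 and 6.003 CPM against 152, 140 and 152 CPM in WT without overlap, and it did not pass the test (-2.38, SE 0.70, adjusted p = 0.028). The count of 4 changed with the libraries used, to 0 without INSL3-KI library 1 or any WT library and to 8 without INSL3-KI library 2 or 3. Lower calls over all genes moved as well. They went from 1966 to 460 without INSL3-KI library 1 and to between 282 and 313 without a WT library. Without INSL3-KI library 2 and library 3 they were 2239 and 2661. The median of -0.52 became -0.81 without INSL3-KI library 2, -0.30 without library 3 and -0.08 with library size alone. Elongating spermatid markers summed to 641, 876 and 79.8 CPM in the INSL3-KI libraries, under the WT range in each, while spermatocyte markers summed to 1718, 1726 and 1055 CPM.

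At P40 INSL3-KI testis had less of nearly all of these genes than WT, both in the first table. The summed level was 4991, 824 and 854 CPM in INSL3-KI, each under the WT libraries. For 44 of 46 genes all INSL3-KI libraries were under all WT libraries (background 40.2%), yet 15 were called lower by edgeR's test and 0 higher (background 22.1% lower and 25.6% higher), with a median log2 fold change of -2.70 against 0.09 for all genes. At an unadjusted p under 0.05 of edgeR's test, 43 genes were lower and 0 higher. DESeq2 called 43 lower and 0 higher, where it called 5238 lower and 3957 higher of all 16677 genes. The genes called by edgeR were Dnah3, Dnal4 and 13 Cfap genes, and it called no outer arm heavy chain. Library 1 set the spread: without it 42 genes were called and the median was -4.19, while without library 2 or 3 the count was 8 and without any WT library 7. Lower calls over all genes moved as well, from 3690 to 5274 without library 1 and to 2781 and 2769 without library 2 and library 3. Without a WT library they were between 2268 and 2643.

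**Figure D3:**
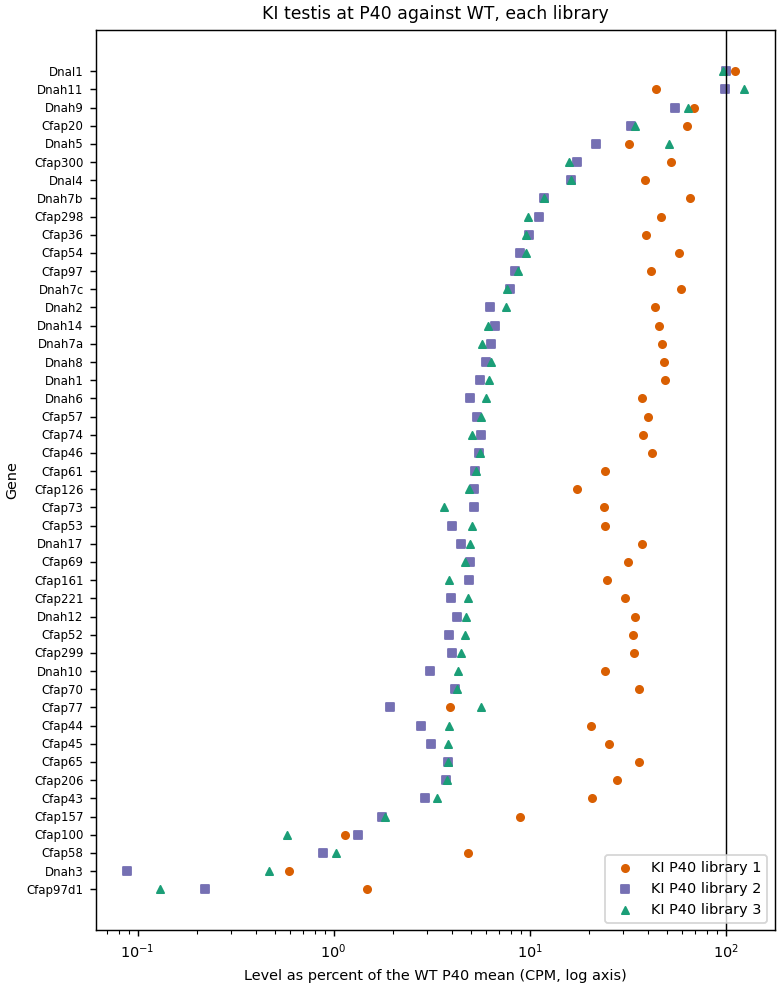
Level of each of 46 genes in the 3 INSL3-KI P40 testis libraries (symbols) as a percent of the WT P40 mean (log axis, black line at 100%). Library 1 has a median of 36.1% and libraries 2 and 3 have 5.193% and 5.1995%, while Dnah3, Cfap100, Cfap97d1, Cfap77, Cfap58 and Cfap157 are under 10% in every library and Dnal1 is near 100% in all 3.

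Most genes kept a share of the WT mean that depended on the library. The median over the 46 genes was 36.1% in library 1, where 6 genes were under 10%, and 5.193% and 5.1995% in libraries 2 and 3, where 37 and 38 genes were under 10%. Dnah8 had 970, 120 and 128 CPM against 1981, 2007 and 2036 CPM in WT, a clear gap between groups but a wide spread within INSL3-KI (log2 fold change -2.29, SE 0.86, edgeR adjusted p = 0.047, not called). Dnah17 (-2.66, SE 0.87, adjusted p = 0.029) and Cfap206 (-3.06, SE 0.86, adjusted p = 0.017) were not called either.

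A few genes were low in every INSL3-KI library, library 1 included. Dnah3 had 4908, 5752 and 4529 counts in WT P40 and 45, 7 and 38 in INSL3-KI, or 0.594%, 0.0884% and 0.469% of the WT mean in CPM (log2 fold change -7.97, SE 0.69, edgeR adjusted p = 0.00033). Cfap97d1 had 1351, 1534 and 1496 counts in WT and 32, 5 and 3 in INSL3-KI (-7.33, SE 0.76, adjusted p = 0.00045). Cfap100, an axonemal coiled coil protein, had 59.4, 56.4 and 35.8 CPM in WT and 0.576, 0.676 and 0.294 CPM in INSL3-KI (-6.55, SE 0.37, adjusted p = 0.00011). In all 3 genes every INSL3-KI library was far under every WT library. Cfap58 (-5.45), Cfap77 (-4.64) and Cfap157 (-4.56) also fell and stood at 4.85%, 3.90% and 8.90% of WT in library 1.

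At the other end of the range, Dnal1 had 29, 30.02 and 31.8 CPM in WT and 33.8, 30.5 and 29.3 CPM in INSL3-KI, overlapping groups (log2 fold change 0.10, SE 0.10, edgeR adjusted p = 0.42). Dnah9 stood at 69.4%, 55.2% and 64.2% of WT (-0.62, SE 0.15, adjusted p = 0.011) and was not called. Cfap20 fell by 1.16 on the log2 scale (SE 0.25, adjusted p = 0.0066) and Dnal4 by 2.03 (SE 0.36, adjusted p = 0.0028). Among the inner arm heavy chains other than Dnah3, estimates ran from that of Dnah10 (-3.22, SE 0.81, adjusted p = 0.011) to that of Dnah7b (-1.72, SE 0.69, adjusted p = 0.060), and none of the 9 was called. Cfap99 had 1156, 1346 and 1436 counts in WT and 778, 120 and 106 in INSL3-KI, with library 1 again the highest.

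Spermatocyte markers summed to 1100, 270 and 197 CPM in the INSL3-KI P40 libraries and to between 1418 and 1562 CPM in WT, with library 1 the highest as for these genes. Elongating spermatid markers summed to 49.96, 5.83 and 9.10 CPM against 11273 to 14167 CPM in WT, and Sertoli cell markers to between 6331 and 9100 CPM against 1971 to 2243 CPM. Their part in the result was not tested.

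The genes lowest at P40 had negative estimates at P23. The 6 genes under 10% in P40 library 1 had log2 fold changes at P23 of -3.99 (Cfap97d1), -3.20 (Cfap77), -2.91 (Cfap100), -2.38 (Dnah3), -1.99 (Cfap157) and -1.85 (Cfap58), of which the first 2 were called. Over the 46 genes the P23 and P40 log2 fold changes had a Pearson's r of 0.542 and a Spearman's rho of 0.513, and 0.671 and 0.556 over the 33 genes of the same length. The comparisons share no library, but the genes are not independent of each other.

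**Figure D4:**
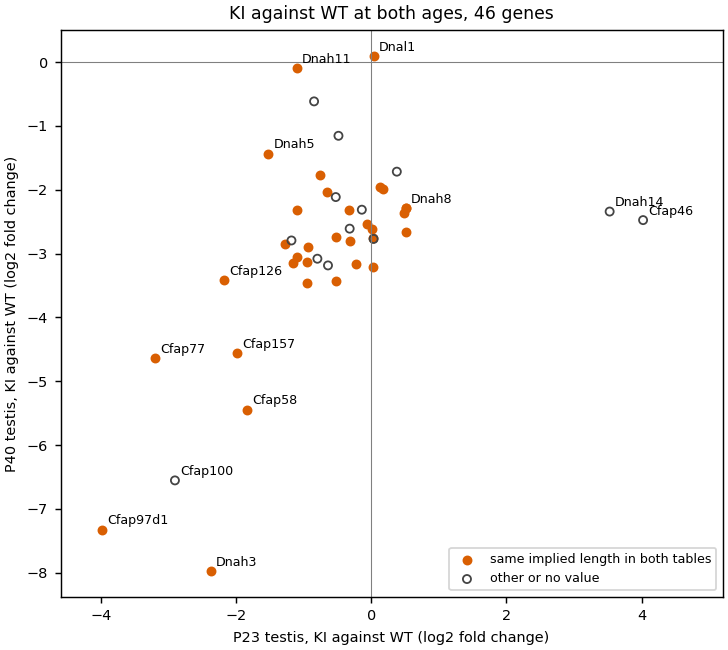
Log2 fold change of INSL3-KI against WT testis at P23 (x axis) and at P40 (y axis) for 46 genes (points, filled where counts and FPKM imply the same transcript length in both tables). Cfap97d1 (-3.99 and -7.33), Dnah3 (-2.38 and -7.97) and Cfap100 (-2.91 and -6.55) lie at the lower left, while Cfap46 and Dnah14, whose implied lengths differ, lie at the right.

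At P8 the INSL3-KI testis libraries were unlike each other. The summed level was 317, 1562 and 290 CPM, with library 2 above the 247 to 271 CPM of WT by far more than the others. Dnah8 had 15.99, 301 and 12.1 CPM in INSL3-KI and 6.06, 3.84 and 3.96 CPM in WT, without overlap (log2 fold change 4.61, SE 1.34, edgeR adjusted p = 0.038, not called). By edgeR's test 0 of 40 genes were called (background 3.25% lower and 3.03% higher), and 18 were higher at an unadjusted p under 0.05. DESeq2 called 6 higher, where it called 1127 lower and 1013 higher of all 15702 genes. For 18 genes the INSL3-KI libraries were all above WT and for 0 all under it (background 27.5% and 27.9%). The median log2 fold change was 1.80 with all libraries and 0.41 without library 2.

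Among genes with counts in libraries 1 or 3, the level in library 2 was a median of 4.66 times and at most 68.3 times the mean of those libraries. Cfap221 (0, 170 and 0 counts) and Cfap58 (0, 103 and 0 counts) had no such ratio. Cfap206 had 48, 2228 and 33 counts, while Dnah3 had 4, 0 and 14 and Cfap97d1 had 0 in all 3. Dnah3 and Cfap97d1, low in INSL3-KI testis at P40, were thus not raised in library 2. Of the other genes lowest at P40, Cfap100 (20, 24 and 18 counts), Cfap157 (37, 35 and 36) and Cfap77 (36, 47 and 51) were hardly raised, while Cfap58 was. Dnah9 (50, 49 and 38 counts) and Dnah11 (61, 61 and 56), not among the lowest at P40, were hardly raised either. Over 47 genes the excess of library 2 at P8 and the excess of library 1 at P40 over the other libraries of their groups had a Pearson's r of 0.713 and a Spearman's rho of 0.818, with no library in common. Spermatocyte markers summed to 426, 1226 and 335 CPM in P8 INSL3-KI, highest in library 2, and to between 40.1 and 83.9 CPM in WT. In the libraries labelled INSL3-KO they summed to between 485 and 492 CPM, above INSL3-KI libraries 1 and 3, although the genes described here summed to only 277 to 285 CPM there. Elongating spermatid markers stayed between 1.63 and 2.60 CPM in INSL3-KI.

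In the testis libraries labelled INSL3-KO at P8, which hold Insl3 counts, the summed level was 285, 277 and 281 CPM, and 1 of 40 genes was lower and 0 higher than in WT (background 8.37% lower and 5.44% higher), across tables. That gene was Cfap43, a sperm tail protein, with 20.2, 17.5 and 20.2 CPM in WT and 8.002, 7.595 and 8.54 CPM in INSL3-KO (log2 fold change -1.24, SE 0.11, edgeR adjusted p = 0.00013). Between INSL3-KI and INSL3-KO at P8, 0 of 41 genes were called by edgeR (background 1.16% lower and 2.76% higher), and 19 were higher at an unadjusted p under 0.05. DESeq2 called 4 higher, where it called 259 lower and 647 higher of all 15728 genes. The INSL3-KI libraries were all above INSL3-KO for 21 genes and all under for 0 (background 25.9% and 26.4%).

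The change with age was also tested within each mutant genotype. In INSL3-KI, 8 of 46 genes were called higher at P23 than at P8 (background 5.70%), all in the first table, with a median log2 fold change of 3.76. They were led by Dnah3 (7.59, SE 1.27, edgeR adjusted p = 0.0095), Cfap73 (5.88, SE 0.64, adjusted p = 0.0086) and Cfap157 (4.98, SE 0.56, adjusted p = 0.0086). Between P23 and P40 edgeR called 0 genes in INSL3-KI (background 0% in each direction), and 22 were lower at an unadjusted p under 0.05. DESeq2 called 5 lower, where it called 829 lower and 316 higher of all 16328 genes. The median log2 fold change was -2.07, or -3.58 without P40 library 1. In INSL3-KO, 8 of 39 genes were higher at P23 than at P8 and 1 lower (background 12.0% higher and 11.7% lower), within the second table, with a median of 0.22. The median shifted with the scaling, for these genes and for all genes, whose median was -0.02. Scaling on the Sertoli list gave 3 higher and 8 lower with a median of -0.69. There all genes had a median of -0.93, with 6784 of 15773 lower and 757 higher. Library size alone gave 6 higher and 1 lower with a median of -0.04, against -0.28 for all genes. In each setting the median of these genes was above that of all genes. Dnah6 (3.66, SE 0.80, adjusted p = 0.0012), Cfap206 (3.26, SE 0.26, adjusted p = 1.9e-07) and Dnah9 (2.57, SE 0.30, adjusted p = 5.6e-06) rose most, from levels under 1 CPM, and Dnah1 fell by 1.70 on the log2 scale (SE 0.18, adjusted p = 2.7e-06).

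The INSL3-KI effect differed between P40 and P8 for most genes, with all 4 groups in the first table. By the interaction test of edgeR, 32 of 46 genes had a lower effect at P40 and 0 a higher one (background 22.5% lower and 23.2% higher), and all 46 estimates were under 0. The median difference was -5.14 and the largest estimates, within their errors of each other, were those of Dnah7a (-9.81, SE 2.14, adjusted p = 0.0024), Cfap58 (-8.58, SE 2.13, adjusted p = 0.0050) and Cfap57 (-7.57, SE 1.79, adjusted p = 0.0038). Without P8 INSL3-KI library 2 the count was 18, without P40 INSL3-KI library 1 it was 39, and over all libraries left out in turn it ran from 13, without WT P40 library 1 or 2, to 39. Lower calls over all genes went from 3902 to 3350 without P8 INSL3-KI library 2 and to 4625 without P40 INSL3-KI library 1. Without WT P40 library 1 and library 2 they were 2845 and 2824.

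Other lists of axonemal genes were counted in the same way. In INSL3-KO testis at P23 all 7 radial spoke, 7 central pair, 9 nexin-dynein regulatory complex and 6 outer arm docking genes tested were lower than in WT, as were 11 of 12 dynein arm assembly factors, all 6 axonemal dynein chains under other symbols and all 5 tektins (background 33.4% lower). In INSL3-KI at P40 the counts were 2 of 8 radial spoke, 3 of 7 central pair, 2 of 9 nexin-dynein regulatory complex, 3 of 6 docking, 3 of 12 assembly, 0 of 6 other dynein chain and 3 of 5 tektin genes, with medians between -4.41 and -2.21 and a background of 22.1% lower, so that the shares of the radial spoke, regulatory complex and assembly lists were near the background. In INSL3-KI at P23 the counts, in the same order, were 1 of 8, 0 of 7, 0 of 9, 1 of 6, 0 of 12, 0 of 6 and 1 of 5, with medians between -1.74 and -0.38 (background 11.8% lower). A list of 8 transcription regulators held Foxj1, Rfx1, Rfx2, Rfx3, Mybl1, Sox30, Crem and Tbpl1, and so is not one of ciliary regulators alone. Of these, 8 were lower in INSL3-KO at P23, 6 in INSL3-KI at P40 and 4 in INSL3-KI at P23. The backgrounds were the same 33.4%, 22.1% and 11.8%. Cytoplasmic dynein, the cargo motor of all cells, did not move one way: of 12 genes 6 were lower and 4 higher in INSL3-KO at P23, and 1 lower and 3 higher in INSL3-KI at P40.

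The gubernaculum expressed these genes at a low level, with sums from 166 to 279 CPM over its 15 libraries. In WT at P8 the highest were Cfap20 (27.7 ± 1.9 FPKM), Cfap36 (18.2 ± 1.3) and Dnal4 (15.2 ± 2.7), genes that are not restricted to motile cilia. In INSL3-KI at P8, 1 of 39 genes was lower than in WT and 1 higher (background 9.70% lower and 14.4% higher), both groups in the first table. In INSL3-KO at P8, 9 of 35 were lower and 1 higher (background 15.2% lower and 15.5% higher), across tables. At P23 edgeR called 0 of 30 genes in INSL3-KI (background 2.35% lower and 0.212% higher), and 4 had an unadjusted p under 0.05, 2 in each direction. DESeq2 called 3, where it called 1389 lower and 830 higher of all 15082 genes.

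**Figure D5:**
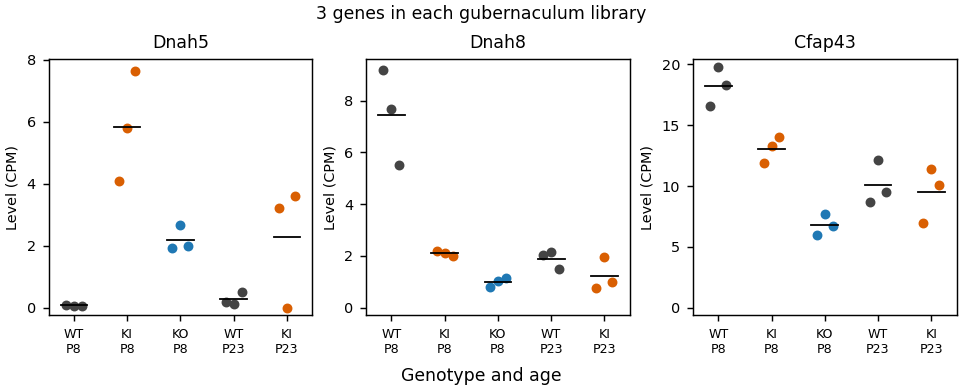
Levels in CPM of Dnah5, Dnah8 and Cfap43 (panels) in each gubernaculum library (points) by genotype and age, with the mean of each group as a black line. Dnah5 is at most 0.0947 CPM in WT at P8 and between 1.93 and 7.64 CPM in INSL3-KI and INSL3-KO at P8, while Dnah8 is higher in WT than in both.

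Dnah5 (chr15:28203752-28472052, plus strand), the outer arm heavy chain of motile cilia, had 3, 2 and 2 counts in WT gubernaculum at P8, 161, 206 and 262 in INSL3-KI and 74, 119 and 87 in INSL3-KO. It was at least 64.4-fold higher in INSL3-KI (edgeR adjusted p = 1.2e-05) and at least 23.5-fold higher in INSL3-KO (adjusted p = 4.7e-05). At P23 it had 5, 4 and 16 counts in WT and 117, 0 and 163 in INSL3-KI. Epididymis markers followed the same libraries. Their sums at P8 ran from 1.47 to 2.08 CPM (WT), from 667 to 1674 CPM (INSL3-KI) and from 1067 to 1176 CPM (INSL3-KO). They came at P23 to 2327, 3.02 and 7523 CPM in INSL3-KI. WT library 3 at P23, with 16 Dnah5 counts, had 1114.5 CPM of these markers against 0.713 and 0.851 in the others. The summed level of multiciliated cell markers went the other way at P8. It ran from 345 to 490 CPM (WT), from 31.5 to 39.8 CPM (INSL3-KI) and from 103 to 117 CPM (INSL3-KO). A few abundant genes can carry such a sum, so it does not show that the markers fell as a set. At P23 the sums came to 15.7, 71.0 and 22.5 CPM in INSL3-KI, highest in library 2, where Dnah5 was 0.

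Dnah8 had 291, 256 and 174 counts in WT gubernaculum at P8, 87, 75 and 69 in INSL3-KI and 30, 46 and 50 in INSL3-KO. No libraries overlapped between WT and either genotype, and it fell by 1.78 on the log2 scale in INSL3-KI (SE 0.25, edgeR adjusted p = 0.00058) and by 2.92 in INSL3-KO (SE 0.28, adjusted p = 8.9e-05). In INSL3-KO Dnah17 (-2.16, SE 0.33, adjusted p = 0.00089), Dnah2 (-1.70, SE 0.32, adjusted p = 0.0025), Cfap43 (-1.42, SE 0.14, adjusted p = 0.00011) and Cfap74 (-1.04, SE 0.23, adjusted p = 0.0048) were also lower. So were Dnah14 (at least 19.995-fold), Cfap57, Dnah10 and Dnah12, and 6 were lower and 1 higher among the 25 genes whose length was the same in both tables. Dnah14, Dnah12 and Cfap74 are not among those 25, since their implied lengths were larger in the first table, which holds WT, by 2.88, 1.43 and 0.51 on the log2 scale, and for them table and genotype cannot be told apart. Sums of skeletal muscle markers at P8 ran from 37896 to 41328 CPM (WT) and from 721 to 1270 CPM (INSL3-KI). In INSL3-KO they ran from 7128 to 7649 CPM. Those of Sertoli cell markers reached 254 CPM (WT), 2769 CPM (INSL3-KI) and 1302 CPM (INSL3-KO). A few abundant genes can carry the Sertoli sum too, so it does not show that these markers rose as a set. Elongating spermatid markers summed to 65.3, 16.8 and 1.93 CPM in WT libraries 1 to 3 at P8, the order of their Dnah8 counts. They summed to between 1.62 and 2.39 CPM in INSL3-KI and between 0.114 and 0.391 CPM in INSL3-KO. Of the 7 markers, 1 of 3 tested was lower in INSL3-KI and 2 of 2 tested in INSL3-KO. The sum of spermatocyte markers did not follow. It ran from 2.66 to 9.47 CPM (WT), from 6.39 to 9.72 CPM (INSL3-KI) and from 5.17 to 6.21 CPM (INSL3-KO). A few genes can carry this sum as well, so it does not show that each of these markers held its level. Of the round spermatid markers 0 were called in either genotype. The part of germ cell, muscle, epididymis, multiciliated and Sertoli cell RNA in these differences was not tested.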

How the data were processed

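RNA-seq counts and FPKM per gene were deposited by the authors in 2 tables. The authors' processing notes name HISAT2 and the GRCm38 build, and the counter and annotation are not given in the sources used here. The authors' FPKM values were deposited beside the counts, and levels per length are those FPKM. Of columns tied to no sample, 0 were used.

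Counts of genes in both tables were joined by Ensembl ID and tested with edgeR 4.0.16 (quasi-likelihood, TMM, filterByExpr with a minimum count of 10 and total of 15) in R 4.3.3, for the libraries of each comparison, with Benjamini-Hochberg adjustment over all genes tested. To be called, a gene had to reach an adjusted p under 0.01 and differ at least 2-fold. Counts at an unadjusted p of edgeR's test were taken for these genes alone, so no share over all genes stands beside them. A gene with at most 3 counts in each library of a group was given a bound on its fold change. CPM levels were TMM scaled over all libraries of a tissue. Alternatives used limma 3.58.1, DESeq2 1.42.0, other scalings, a replicate block and libraries left out, and Python 3.11.15 drew the figures. The edgeR test was also run on simulated data, with a smaller spread between replicates than in P40 INSL3-KI against WT testis. The common biological coefficient of variation of that comparison was 0.303, and no simulated library was set apart from its group. The simulation therefore does not show how the test acts on groups with such a library. Gene positions are those of GENCODE M21 and promoters those of RefSeq.

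Genes named are all Dnah and Dnal genes, the 10 Cfap genes highest in WT P40 testis, the 3 largest called changes in each direction of a comparison with no overlap and at least 1 CPM, all called genes where 5 or fewer were called at P8 or in gubernaculum, and genes no filter kept. Others were named after their values were seen. The genes and lists were chosen with earlier results of these data known. The sources call the replicates biological. Pairs of libraries of a group differed by 4.17 to 869 in chi-square per degree of freedom, and 0 of 39 pairs were identical. The SE of a log2 fold change was taken from edgeR's quasi-likelihood test, which includes the spread between replicates. Bounds at the floor cover counting error only.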

Additional observations from a re-analysis of the deposited data

Results flagged for a closer look

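The effect of INSL3-KI in testis differed between P40 and P8 by the interaction test of edgeR for 32 of the genes, all with a lower effect at P40. The differences in log2 fold change of the 3 largest were -9.811 for Dnah7a, -8.577 for Cfap58 and -7.571 for Cfap57. Without P8 INSL3-KI library 2, 18 genes were called, and Dnah7a shares 19.1% of its 100-base words with other genes.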

How the results depend on the processing

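Counts of called genes, by setting. In P40 INSL3-KI against WT testis, the 15 lower genes became 9 with library size alone, 43 with DESeq2, 34 scaled on the Sertoli list, 26 with limma on log2(FPKM + 1) and 28 with all testis groups in 1 fit. With library size alone the median of all genes was 0.70 rather than 0.09, with 2458 genes lower and 6583 higher in place of 3690 and 4264. On the Sertoli list the median of all genes was -1.86, with 10686 of 16677 genes lower and 52 higher, so most genes of any kind were called lower there. DESeq2 called 5238 of all genes lower, limma on log2(FPKM + 1) 2631 and the single fit 4641. In P23 INSL3-KI against WT, the 4 lower genes became 13 with DESeq2 and 0 on the Sertoli list. Lower calls over all genes there went from 1966 to 3045 and 188. At P8, INSL3-KI against WT had 6 calls with DESeq2 and 8 in 1 fit, INSL3-KI against INSL3-KO 4 and 9, and INSL3-KO against WT 2 with DESeq2 or the Sertoli list and 0 with limma on log2(FPKM + 1), in 1 fit or at a fold of at least 4. Higher calls over all genes were 1013 with DESeq2 and 958 in 1 fit for INSL3-KI against WT. Against INSL3-KO they were 647 and 546. For INSL3-KO against WT, lower calls over all genes were 1487 with DESeq2 and 1826 on the Sertoli list. INSL3-KI at P23 against P8 had 34 higher genes with DESeq2, 0 on the Sertoli list, 26 and 25 with limma on log2(FPKM + 1) and log2(FPKM + 0.1), and 40 in 1 fit. Higher calls over all genes were, in this order, 3403, 0, 1412, 1777 and 3810, in place of 935. INSL3-KI at P40 against P23 had 5 and 16 calls with DESeq2 and in 1 fit, all lower, where 829 and 2442 of all genes were lower. INSL3-KO at P23 against P8 had 3 higher genes on the Sertoli list, where 8 were lower rather than 1. There the median turned from 0.22 to -0.69, while that of all genes went from -0.02 to -0.93. It had 2, 4 and 1 higher genes with limma on + 1 and + 0.1 and in 1 fit, and 4 at a fold of at least 4. In gubernaculum, P8 INSL3-KI had 0, 1 and 1 calls with limma on + 1 and + 0.1 and at a fold of at least 4, P8 INSL3-KO 0 and 3 with limma, and P23 INSL3-KI 3 with DESeq2 and 2 in 1 fit. The interaction count was 18 with DESeq2. The causes were not tested. In all, 101 of 141 counts stayed within 1.5 times the main count.

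With the replicate number as a block, P23 INSL3-KI against WT had 2 lower genes, P8 INSL3-KO against WT 2 calls, INSL3-KI at P23 against P8 24 higher and the interaction 15 lower. No other count moved by over 1.5 times. Same-numbered libraries of the groups deviated together (every correlation over 0.1) in 0 of 15 comparisons, with correlations from -0.73 to 0.81, and every library correlated best with its own number in 1, so the numbers do not pair the libraries.

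Leaving out each library in turn, the counts ran from 7 to 42 in P40 INSL3-KI, 0 to 8 in P23 INSL3-KI, 42 to 44 in P23 INSL3-KO, 37 to 42 in P23 INSL3-KI against INSL3-KO, 0 to 1 in P8 INSL3-KI, 1 to 5 in P8 INSL3-KO, 0 to 3 in P8 INSL3-KI against INSL3-KO, 42 to 45 in WT P40 against P8, 0 to 0 in INSL3-KI P40 against P23 and in P23 gubernaculum, 2 to 3 and 7 to 9 in P8 gubernaculum INSL3-KI and INSL3-KO, and 13 to 39 for the interaction. It was not run for P23 against P8 within a genotype. Log2 fold changes that changed sign were, at P40, those of Dnah9 with limma (0.004 and 0.011), Dnah11 with library size (0.524), and without single replicates (0.020, 0.238 and 0.239, in a range from -0.454 to 0.239), and Dnal1 with DESeq2 (-0.080), the Sertoli list (-1.849) and limma (-0.042 and -0.047), and, in P23 INSL3-KO, those of Dnal1 with library size (0.077) and Dnah9 with limma (0.014 and 0.055). No alternative varied the depth.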
